A study of Mus musculus with 6 samples.

Results

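The secretoglobins Scgb3a1, Scgb3a2 and Scgb1a1 were examined in lung endothelial cells (ECs) from mice with breast cancer metastases. They were selected by gene annotation, as all probe sets annotated to 1 of these 3 symbols alone, and each gene had 1 such probe set, so the 3 genes were represented by 3 of 45037 probe sets and were 3 of 18193 genes with a probe set of their own. The study had selected Scgb3a1, together with Inhbb, Lama1 and Tnfrsf11b, as a niche gene, a gene for a secreted EC factor that supports metastatic growth. By qPCR of cells sorted from metastatic lungs, the study found these niche genes distinct to ECs beside fibroblasts, hematopoietic cells and epithelial cells. It also reported, with qPCR besides arrays, that macrophage depletion repressed them in ECs. Scgb1a1 and Scgb3a2 are secretoglobins of the airway epithelium and were set beside Scgb3a1 array by array.

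Both groups consisted of NSG mice, which lack T, B and natural killer cells, aged 6 to 8 weeks. All of them carried lung metastases that arose from MDA-MB-231-LM2, human breast carcinoma cells with high capacity to colonise lung, after injection by the tail vein. The clodronate-liposome group (3 arrays) received liposomes loaded with clodronate, which kills phagocytes that take them up, on days 14, 16 and 18 after tumor cell injection. The PBS-liposome group (3 arrays) received PBS-loaded liposomes on the same days, and lungs were taken on day 20, which the labels round to 3 weeks. There was no array of mice without metastases and none of mice without liposomes. ECs were sorted from whole lung as CD31-positive cells after removal of cells carrying CD45, CD11b, EpCAM, CD140a, CD140b or tumor GFP. The labels call the samples biological replicates without giving the number of mice in each, so p values measure the spread between these samples.

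Secretoglobins are small secreted proteins that pair into dimers. Scgb1a1, also known as uteroglobin or club cell secretory protein, is the classical product of club cells, the secretory cells of the bronchiolar lining, and Scgb3a2 is made by the same airway epithelium. Scgb3a1 was described in human breast as HIN-1, a secreted product of normal epithelium that is silenced in many breast carcinomas, and it is also made by secretory cells of the larger airways. In airway epithelium, transcription of Scgb1a1 and Scgb3a2 is known to depend on NKX2-1 and on factors of the FOXA and C/EBP families.

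The RefSeq promoter table matched 1 of the 3 members, Scgb3a1, and not Scgb3a2 or Scgb1a1. The Scgb3a1 promoter is shown for its matches to motifs of factor families, some of whose members are described with the results. The sequence (GRCm38.p6, chr11:49663345-49663644, plus strand) runs from 250 bases before the start site to 50 bases after it. Capitals mark every match to the motifs searched.

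Scgb3a1 promoter: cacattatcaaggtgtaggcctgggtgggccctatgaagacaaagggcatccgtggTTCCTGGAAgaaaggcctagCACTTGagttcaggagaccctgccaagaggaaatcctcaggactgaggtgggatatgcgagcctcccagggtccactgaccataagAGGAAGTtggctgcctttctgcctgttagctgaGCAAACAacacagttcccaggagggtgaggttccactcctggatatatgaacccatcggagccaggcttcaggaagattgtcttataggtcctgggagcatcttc

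From the 5′ end, the first capital stretch matched the STAT motif TTCNNNGAA, 194 to 186 bases upstream of the start. The next was CAAGTG on the minus strand, a core motif of NKX2 factors, at 174 to 169 bases upstream. AGGAAGT, a motif of ETS factors, which include endothelial regulators, lay 88 to 82 bases upstream on the plus strand. TGTTTNC on the minus strand, a core of forkhead factors, lay 55 to 49 bases upstream. None of these matches overlapped another. On both strands of 32851 promoters of this length, the STAT letters were found in 8.3%, CAAGTG in 13.6%, AGGAAGT in 9.35% and TGTTTNC in 20.5%, so each is a common sequence. No match was found in this window for the C/EBP letters TTGCNNAA (10.8% of promoters), the AP-1 letters TGANTCA (7.81%) or the TATA box letters TATAAA (13.6%).

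Scgb3a1 signal was lower on every clodronate-liposome array than on any PBS-liposome array, by 2.35-fold on average, but the difference did not pass the test over all probe sets. The log2 signal was 9.67, 11.30 and 10.66 on clodronate-liposome replicates 1, 2 and 3. On PBS-liposome replicates 1, 2 and 3 it was 11.82, 11.56 and 11.95. Clodronate-liposome replicate 1 was the lowest array, and the distance between replicate 2 and the lowest PBS-liposome array was small beside the spread of the clodronate-liposome group. The means were 10.54 ± 0.82 in the clodronate-liposome group and 11.77 ± 0.20 in the PBS-liposome group (SD, n = 3 each). The log2 difference was -1.23 (SE 0.36, 95% interval -2.05 to -0.41), with an unadjusted p of 0.00890 and an adjusted p of 0.247 by limma with Benjamini-Hochberg correction. In the same fit 0.306% of probe sets passed the threshold of 0.05, and 0 of the 3 secretoglobins did. Scgb3a1 was the 1 of 3 members whose groups did not overlap, and 8.04% of all probe sets were lower without overlap. In RNA from sorted cells, fewer cells expressing a gene and less RNA per cell cannot be told apart.

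The difference of Scgb3a2 between the groups was within the spread of the replicates. Its log2 signal was 7.69, 7.59 and 7.31 on clodronate-liposome arrays and 7.38, 8.17 and 7.77 on PBS-liposome arrays. The groups overlapped, the highest signal was on PBS-liposome replicate 2, and all but that array lay below the array median of 8.13. Means were 7.53 ± 0.20 in the clodronate-liposome group and 7.77 ± 0.40 in the PBS-liposome group (SD, n = 3 each). The log2 difference was -0.24 (SE 0.20, 95% interval -0.71 to 0.22, limma adjusted p = 0.745).

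Scgb1a1 varied far more between replicates than between groups. Its log2 signal was 11.28, 7.53 and 7.89 on clodronate-liposome arrays and 10.37, 10.06 and 8.76 on PBS-liposome arrays. The clodronate-liposome group thus held the highest array, replicate 1, and both of the lowest, replicates 2 and 3. Means were 8.90 ± 2.07 in the clodronate-liposome group and 9.73 ± 0.85 in the PBS-liposome group (SD, n = 3 each), a log2 difference of -0.83 (SE 0.92, 95% interval -2.96 to 1.30, limma adjusted p = 0.826). The interval includes a decrease larger than that of Scgb3a1 as well as an increase. Whether Scgb1a1 differed could not be told at this spread.

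**Figure D1:**
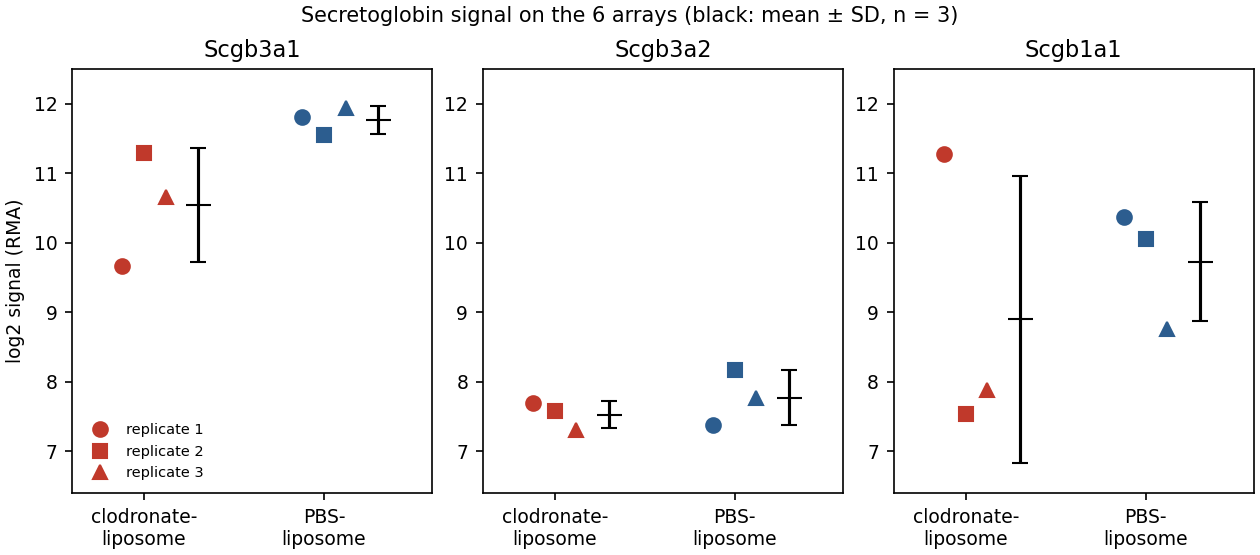
Log2 signal of Scgb3a1, Scgb3a2 and Scgb1a1 on each array, clodronate-liposome at left (red) and PBS-liposome at right (blue), with marker shapes for replicate numbers and black marks for mean ± SD (n = 3 per group). Scgb3a1 separates the groups, Scgb3a2 and Scgb1a1 do not, and clodronate-liposome replicate 1 (circle) is lowest for Scgb3a1 and highest for Scgb1a1.

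The spread of Scgb1a1 and Scgb3a1 within groups was itself unusual among the probe sets, and that of Scgb3a2 was less so. After the group means were removed, the residual SD was 1.58 for Scgb1a1, which ranked 2 among 45037 probe sets, 0.60 for Scgb3a1 (rank 217) and 0.31 for Scgb3a2 (rank 4283), against a median of 0.15. The probe set ranked 1 belonged to Sftpc, which encodes surfactant protein C of alveolar type II cells and had a residual SD of 1.63. Within the clodronate-liposome group Scgb1a1 covered a 13.4-fold range and within the PBS-liposome group a 3.05-fold range. For Scgb3a1 these ranges were 3.09-fold in the clodronate-liposome group and 1.31-fold in the PBS-liposome group. For Scgb3a2 they were 1.31-fold in the clodronate-liposome group and 1.73-fold in the PBS-liposome group.

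Array by array, no correlation between the secretoglobins passed the test. For Scgb3a1, the Pearson correlation over 6 arrays was -0.30 with Scgb1a1 (exact permutation p = 0.575) and 0.16 with Scgb3a2 (exact permutation p = 0.735). Spearman's rho was -0.086 for Scgb3a1 with Scgb1a1 (exact permutation p = 0.919) and 0.31 with Scgb3a2 (exact permutation p = 0.564). Scgb1a1 and Scgb3a2 correlated at r = 0.31 (exact permutation p = 0.568) and rho = 0.26 (exact permutation p = 0.658). After correction over these 3 pairs, every p for r was 0.735 and every p for rho was 0.919. Without the arrays farthest from the median of Scgb3a1, clodronate-liposome replicates 1 and 3, its r was 0.51 with Scgb1a1 and -0.13 with Scgb3a2, so both signs rested on those arrays. For Scgb1a1 with Scgb3a2, r was 0.38 without clodronate-liposome replicates 1 and 2.

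The change of Scgb3a1 was also compared with that of each airway secretoglobin by subtraction within arrays. Since signals of different probe sets have no common scale, only changes of this quantity between arrays can be read. Scgb3a1 minus Scgb1a1 was -1.60, 3.77 and 2.77 on clodronate-liposome arrays and 1.45, 1.49 and 3.18 on PBS-liposome arrays. Clodronate-liposome replicate 1 stood below all PBS-liposome arrays and replicate 2 above them, and the log2 changes differed by -0.40 (two-sided exact permutation p = 0.9). Scgb3a1 minus Scgb3a2 was 1.98, 3.72 and 3.35 on clodronate-liposome arrays and 4.44, 3.39 and 4.17 on PBS-liposome arrays. Here the changes differed by -0.99 (two-sided exact permutation p = 0.2). With 3 arrays against 3 the smallest p this test allows is 0.1, so neither comparison could pass a threshold of 0.05.

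Cyp2f2 and Sftpc shared the extremes of the secretoglobins on clodronate-liposome replicate 1. Cyp2f2, a cytochrome P450 of club cells, had log2 signals of 7.38, 6.41 and 6.41 on clodronate-liposome arrays and 6.76, 6.57 and 6.56 on PBS-liposome arrays, highest on the array where Scgb1a1 was highest. Sftpc had signals of 8.49, 12.78 and 11.47 on clodronate-liposome arrays and 11.38, 10.14 and 11.35 on PBS-liposome arrays, lowest where Scgb3a1 was lowest. A further probe set of Sftpc gave 8.46, 12.01 and 11.53 on clodronate-liposome arrays and 10.80, 9.30 and 10.62 on PBS-liposome arrays. For these lung epithelial genes the groups overlapped, and the Sftpc log2 difference was -0.05 by the brighter probe set and 0.43 by the other. As a description of deviations from the group means over 6 arrays, Scgb3a1 correlated at 0.99 with Sftpc, -0.91 with Scgb1a1 and -0.87 with Cyp2f2, and Scgb1a1 at 0.96 with Cyp2f2 and -0.90 with Sftpc. These correlations share the same arrays, and clodronate-liposome replicate 1 has the largest deviation in each gene. The mean of Cyp2f2, 6.68, lay below the array median of 8.13. Of 20 airway secretory markers, Cyp2f2 among them, 3 were highest on clodronate-liposome replicate 1, against 21.4% of all genes. On the same array 4 of the 20 were lowest, against 18.2% of all genes.

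The Scgb3a1 difference was also computed with covariates. With the mean of the airway secretory markers in the model, the log2 difference was -1.29 (limma adjusted p = 0.250). With Scgb1a1 in the model it was -1.51 and with Sftpc -1.21, values that are given as descriptions only. Those 2 genes were chosen after their values had been seen and follow the deviations of Scgb3a1 closely, so a smaller residual error was built into the choice (SE 0.19 with Scgb1a1 and 0.11 with Sftpc, against 0.36 with no covariate).

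**Figure D2:**
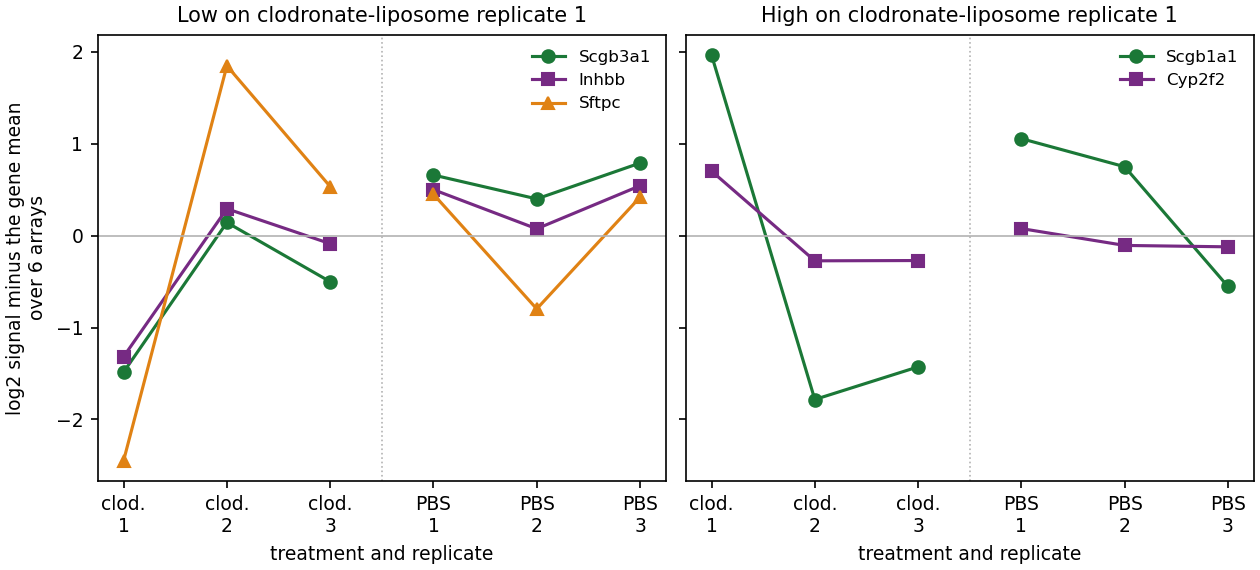
Log2 signal minus the mean of each gene over 6 arrays, for Scgb3a1, Inhbb and Sftpc at left and Scgb1a1 and Cyp2f2 at right, with clodronate-liposome (clod.) arrays before PBS-liposome arrays and lines joining arrays of a group only to guide the eye. On clodronate-liposome replicate 1 the genes at left are at their lowest and the genes at right at their highest.

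Among the niche genes, each by its brightest probe set, Inhbb had the within-group pattern most like that of Scgb3a1. Inhbb, which encodes the subunit of activin B, had log2 signals of 11.41, 13.02 and 12.64 on clodronate-liposome arrays and 13.22, 12.80 and 13.27 on PBS-liposome arrays. Its groups overlapped, and the log2 difference was -0.74 (limma adjusted p = 0.534). A further probe set of Inhbb gave 8.73, 9.75 and 9.85 on clodronate-liposome arrays and 10.34, 9.44 and 10.71 on PBS-liposome arrays. There, unlike for Scgb3a1, clodronate-liposome replicate 3 was above replicate 2. Tnfrsf11b, which encodes the decoy receptor osteoprotegerin, had signals of 9.66, 10.36 and 9.82 on clodronate-liposome arrays and 10.87, 11.41 and 11.28 on PBS-liposome arrays. The log2 difference was -1.24 (limma adjusted p = 0.0716), and a further probe set of Tnfrsf11b differed by -1.14 (limma adjusted p = 0.156). Lama1, a laminin chain of basement membranes, had signals of 8.65, 8.77 and 8.95 on clodronate-liposome arrays and 10.12, 9.61 and 9.96 on PBS-liposome arrays. Lama1 fell by 1.10 on the log2 scale (limma adjusted p = 0.0355) and was the only niche gene of the 4 past the threshold. That call was lost with the replicate number as a block and with the hybridization controls as a covariate. In each of these fits 0 probe sets passed in limma, with smallest adjusted p values of 0.0507 and 0.0608. In the same fits 5033 and 4710 probe sets had an unadjusted p under 0.05, against 4864 without either term. All 4 niche genes had their lowest signal on clodronate-liposome replicate 1. Over all genes, 18.2% were lowest on that array. By the brightest probe set of each gene, the correlation of deviations from the group means with Scgb3a1 was 0.98 for Inhbb, 0.65 for Tnfrsf11b and 0.40 for Lama1.

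No marker of airway cells passed the test. Of 20 airway secretory markers, 0 were past the threshold, against 0.434% of all genes, 16 had a mean below the array median, and the median log2 difference was -0.01, against -0.003 over all genes. The log2 signals of these markers summed to between 149.1 and 151.9 on clodronate-liposome arrays and between 148.1 and 152.6 on PBS-liposome arrays. In 2 of the 20 the groups did not overlap, both lower in the clodronate-liposome group, and 8.75% of all genes were lower without overlap. They were Aox3, an aldehyde oxidase, with a log2 difference of -0.51 (limma adjusted p = 0.205), and Gabrp, a GABA receptor subunit, with a difference of -0.11 (limma adjusted p = 0.727). A further probe set of Gabrp went the other way, also without overlap, with a difference of 0.27 (limma adjusted p = 0.441). Bpifb1, a secreted airway defence protein, differed by -0.02 and Muc5b, an airway mucin, by -0.09. A further probe set of Bpifb1 differed by -0.30 with overlap (limma adjusted p = 0.571). Hp, which encodes haptoglobin, differed by -0.39 and Ltf, which encodes lactoferrin, by 0.26, with limma adjusted p values of 0.745 and 0.821. The 10 ciliated cell markers had a median difference of 0.05 with 0 past the threshold, and the 7 alveolar type I markers a median of 0.06 with 0 past it.

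Several alveolar type II markers had their lowest signal on the array where Scgb3a1 was lowest. Of 11 measured markers, 6 were lowest on clodronate-liposome replicate 1, against 18.2% of all genes. Between groups 0 passed the test, and the median log2 difference was 0.04. In 2 of the 11 the signal was lower in the clodronate-liposome group without overlap, against 8.75% of all genes. They were Chil1, with a log2 difference of -0.68 (limma adjusted p = 0.204), and Napsa, with -0.26 (limma adjusted p = 0.433). A further probe set of Napsa differed by -0.15 with overlap. The mean deviation of the 11 markers was -0.53, 0.44 and 0.13 on clodronate-liposome arrays and 0.14, -0.22 and 0.04 on PBS-liposome arrays. Their summed log2 signal ranged from 93.1 to 103.8 on clodronate-liposome arrays and from 96.6 to 100.5 on PBS-liposome arrays. In deviations from the group means, Sftpa1, which encodes surfactant protein A, correlated with Scgb3a1 at 0.96 and Cxcl15, a chemokine of lung epithelium, at 0.92. Other markers of the list did not share this pattern. Chil1 had signals of 8.74, 8.14 and 8.35 on clodronate-liposome arrays, lowest on replicate 2. Abca3 varied little, at 11.98, 12.02 and 11.93 on the same arrays. Epcam, the epithelial antigen used to remove cells in the sort, had signals of 7.24, 7.39 and 7.01 on clodronate-liposome arrays and 7.36, 7.38 and 7.30 on PBS-liposome arrays, all below the array median. Of the 14 pan-epithelial markers 0 passed the test, and their median difference was -0.03. The part of epithelial RNA in the Scgb3a1 difference was not tested.

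Pecam1, which encodes CD31, had signals of 13.70, 13.53 and 13.64 on clodronate-liposome arrays and 13.57, 13.50 and 13.58 on PBS-liposome arrays. The 12 pan-endothelial markers all lay above the array median, with a median log2 difference of 0.04 and 0 past the threshold, which fits the labelled cell type. Of 14 macrophage markers 0 passed the test, and 6 were lower in the clodronate-liposome group without overlap, against 8.75% of all genes, with a median difference of -0.18. Their log2 signals summed to between 111.4 and 112.9 on clodronate-liposome arrays and between 114.0 and 118.4 on PBS-liposome arrays, so the summed level of this list did not overlap between the groups. The same was true of 2 other marker lists. The 10 mural and fibroblast markers summed to between 90.5 and 93.2 on clodronate-liposome arrays and between 93.6 and 94.1 on PBS-liposome arrays, with 0 past the threshold, 8 of 10 lower and a median difference of -0.20. The 8 venous endothelial markers summed to between 92.7 and 93.8 on clodronate-liposome arrays and between 95.1 and 96.2 on PBS-liposome arrays. Among them Ackr1, an atypical chemokine receptor of venules, fell by 1.36 (limma adjusted p = 0.0144) and Selp, which encodes P-selectin, by 1.03 (limma adjusted p = 0.0428) on the log2 scale, calls that were lost with the same block and covariate as that of Lama1. Of the 8 venous markers, 2 were past the threshold and 5 were lower, 3 of them without overlap, and the median difference was -0.11. The remaining venous markers were higher, Prss23 by 0.34 without overlap (limma adjusted p = 0.274), Vcam1 by 0.25 and Vwf by 0.05. The lower summed level of the venous list was thus not a fall of every marker in it. The part of the lists without overlap in their sums in the Scgb3a1 difference was not tested.

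**Figure D3:**
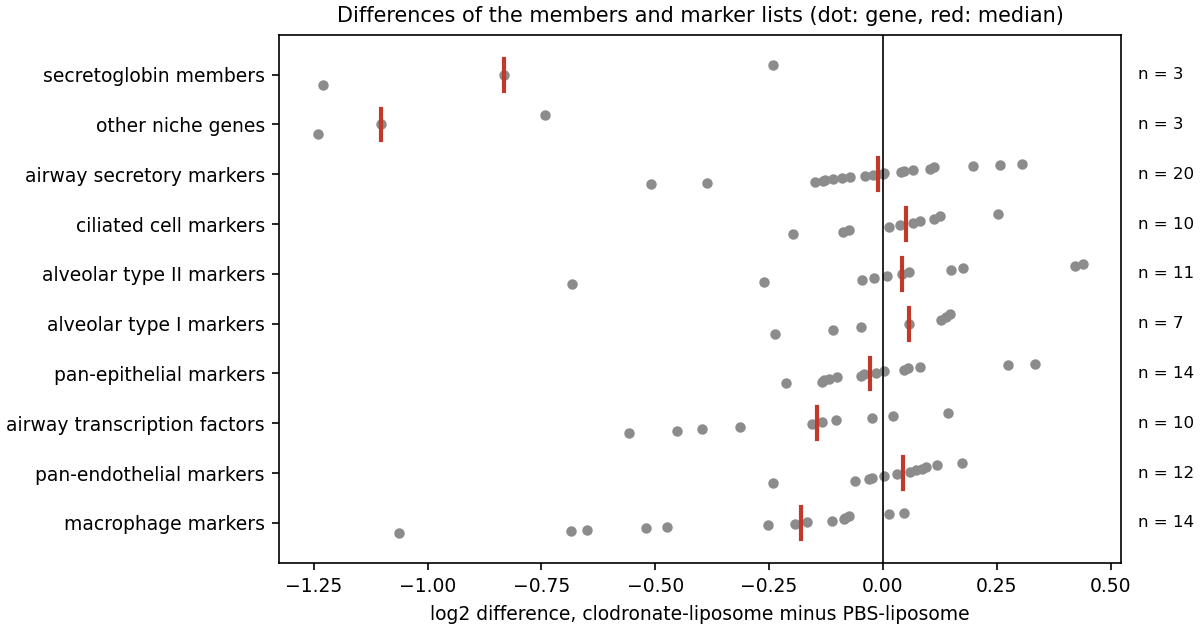
Log2 difference, clodronate-liposome minus PBS-liposome, of each gene (dots) and the median (red line) for the 3 secretoglobins, the other 3 niche genes and 8 lists of markers and transcription factors, with the number of genes at right. The medians of the epithelial marker lists lie between -0.03 and 0.06, and single genes of these lists between -0.68 and 0.44. The median of the airway transcription factors lies at -0.14. Scgb3a1 lies at -1.23 and the other niche genes between -1.24 and -0.74.

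Of 10 transcription factors of airway secretory cells, 0 passed the test, 6 had a mean below the array median, and the median log2 difference was -0.14. Their log2 signals summed to between 80.0 and 81.5 on clodronate-liposome arrays and between 82.1 and 83.5 on PBS-liposome arrays, also without overlap, and their part in the Scgb3a1 difference was not tested. Nkx2-1, a lung epithelial regulator, had signals of 8.11, 8.68 and 8.08 on clodronate-liposome arrays and 8.80, 8.81 and 8.62 on PBS-liposome arrays, a difference of -0.45 (limma adjusted p = 0.379). Like Scgb3a1 it was higher on clodronate-liposome replicate 2 than on replicates 1 and 3, and the groups overlapped. Foxa2, a forkhead factor of endoderm, differed by 0.02 (limma adjusted p = 0.975). Cebpb, a factor of acute inflammatory gene expression, had signals of 9.59, 9.95 and 9.78 on clodronate-liposome arrays and 10.06, 10.07 and 10.13 on PBS-liposome arrays. Its groups did not overlap, and its difference of -0.31 did not pass the test (limma adjusted p = 0.368). A further probe set of Cebpb differed by 0.07 with overlap. Cebpd, the brightest gene of the list with a mean of 13.13, differed by -0.56 with overlap (limma adjusted p = 0.340). Cebpb and Cebpd are thus among the falling genes in the summed level. A further probe set of Cebpd differed by -0.30 without overlap (limma adjusted p = 0.376). Grhl2 differed by -0.40 by its brightest probe set, with overlap (limma adjusted p = 0.431).

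Cebpb was also among the 6 genes whose pattern over 6 arrays was most like that of Scgb3a1, with r = 0.990, among 10917 genes whose mean was at or above the array median. The others were Pdlim1, a PDZ and LIM domain protein of the actin cytoskeleton (r = 0.995), Fosl2, an AP-1 subunit (0.993), Dlst, an enzyme of the citric acid cycle (0.991), Dnaja1, an HSP40 co-chaperone (0.991), and Zcchc2, a zinc finger protein (0.989). Fosl2 signal was 11.46, 12.09 and 11.88 on clodronate-liposome arrays and 12.38, 12.31 and 12.51 on PBS-liposome arrays, so it kept the order of Scgb3a1 on all 6 arrays. Its log2 difference was -0.59 (limma adjusted p = 0.224). Of the 6 genes, 0 passed the test. The correlation exceeded 0.95 for 73 genes, so these 6 are the top of a larger set.

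With group means removed, the genes most like Scgb3a1 were Mir22hg, the host transcript of miR-22 (r = 0.999), Mier3 (0.998), the zinc finger gene Zbtb10 (0.996), Cfl2, which encodes the actin-binding protein cofilin 2 (0.996), the magnesium transporter gene Slc41a2 (0.994) and the centrosomal gene Cep170 (0.994). No gene was in both lists of 6. The correlation exceeded 0.95 for 140 genes in this comparison. Mir22hg had signals of 9.93, 10.41 and 10.22 on clodronate-liposome arrays and 10.12, 10.02 and 10.14 on PBS-liposome arrays, so it shared the order of replicates with Scgb3a1 while its groups overlapped.

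The other secretoglobins with a probe set of their own, 3 genes, showed smaller differences that did not pass the test. Scgb1b2 differed by -0.09 (limma adjusted p = 0.806), Scgb1b27 by 0.11 (limma adjusted p = 0.901) and Scgb2b27 by 0.09 (limma adjusted p = 0.835) on the log2 scale. These are members of the mouse androgen-binding protein cluster, whose genes are close in sequence, so each value is uncertain as to the member it measures.

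The arrays also differed in control signals. The hybridization controls, added at fixed amounts, averaged 11.91, 12.20 and 11.94 on clodronate-liposome arrays and 12.11, 12.24 and 12.12 on PBS-liposome arrays. The 18S ribosomal RNA controls averaged 13.01, 12.33 and 13.00 on clodronate-liposome arrays and 12.63, 12.39 and 12.56 on PBS-liposome arrays. Clodronate-liposome replicates 1 and 3, which had the lowest Scgb3a1 signals, thus had the lowest hybridization and the highest ribosomal signals. With the hybridization controls as a covariate the log2 difference of Scgb3a1 was -0.78.

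The Scgb3a1 difference kept its sign when each array was left out. Without clodronate-liposome replicate 1 it was -0.79, and across the 6 omissions it ranged from -1.61 to -0.79 with limma adjusted p values of 0.106 to 0.456. For Scgb3a2 the range was -0.44 to -0.04, with -0.44 without PBS-liposome replicate 1 and -0.04 without PBS-liposome replicate 2. For Scgb1a1 it was -2.02 to -0.15. Without clodronate-liposome replicate 1 the Scgb1a1 difference was -2.02, below that of Scgb3a1 on the same 5 arrays, and without clodronate-liposome replicate 2 it was -0.15. The difference between the changes of Scgb3a1 and Scgb1a1 accordingly had the other sign, 1.23, without clodronate-liposome replicate 1, and it was 0.17 when PBS-liposome replicate 3 was omitted.

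**Figure D4:**
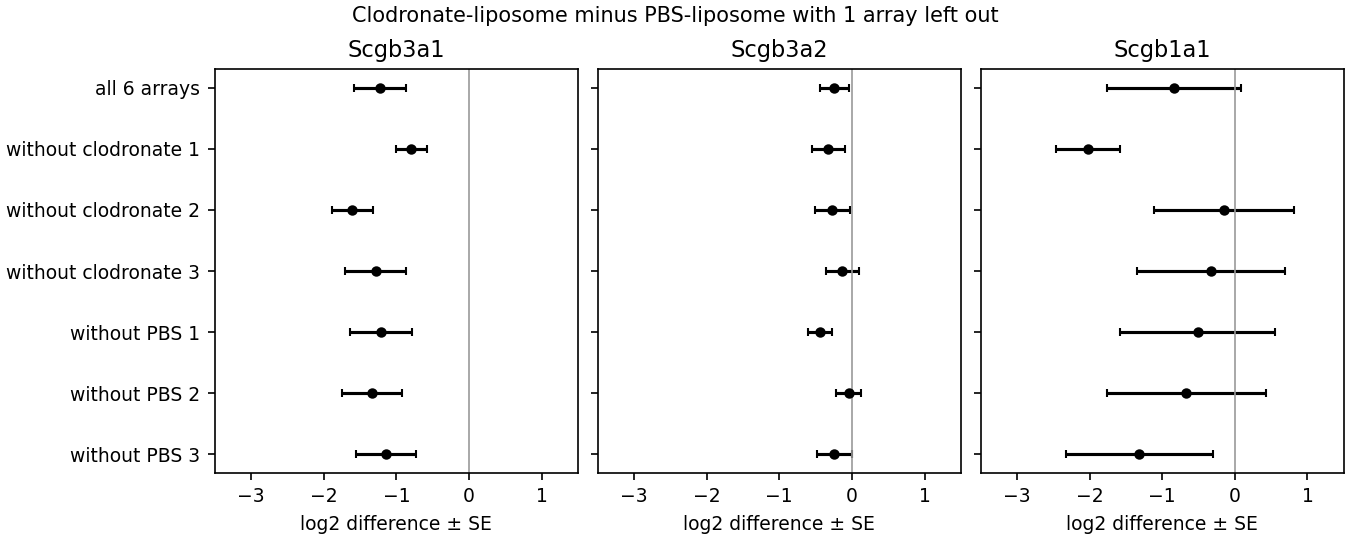
Log2 difference, clodronate-liposome minus PBS-liposome, of each secretoglobin with its SE (bars) from all 6 arrays and with 1 array left out. Scgb3a1 lies between -1.61 and -0.79, Scgb3a2 between -0.44 and -0.04, and Scgb1a1 between -2.02 and -0.15, with the last of these depending most on clodronate-liposome replicate 1.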

How the data were processed

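RNA from sorted lung ECs of 6 samples was hybridised to Affymetrix mouse arrays, 1 array per sample. The deposited values were log2 signals that the authors had made by robust multiarray averaging, which equalises array distributions, and they were used as deposited. An overall change in RNA amount can therefore not be seen. Of 45101 probe sets, 64 controls were set aside. The platform annotation gave 34945 probe sets 1 symbol, and the brightest of them stood for each gene.

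A linear model with moderated variance (limma 3.58.1, R 4.3.3, two-sided) gave each difference, clodronate-liposome minus PBS-liposome, with Benjamini-Hochberg adjustment over 45037 probe sets. The number of arrays, 3 per group, limits precision. Correlations and differences of changes were tested by exact permutation. The limma fit was tested on simulated data.

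The members and marker lists were chosen with earlier results of these data known. The genes named were the secretoglobins, the niche genes, the 6 genes most correlated with Scgb3a1 overall and within groups, up to 4 markers of each list with the highest mean, and set markers. Aox3, Gabrp, Chil1, Napsa, Sftpa1, Cxcl15, Ackr1 and Selp were named after their values were seen. Alternatives covered low-signal filtering, normalization, centring, variance models, array weights, covariates, a replicate block and omitted arrays.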

Additional observations from a re-analysis of the deposited data

How the results depend on the processing

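The differences of Scgb3a1, Scgb3a2 and Scgb1a1 stayed negative under every alternative run, and none of them passed the threshold under any of them but 2. Those models, chosen after seeing the data, gave log2 differences of -1.51 with Scgb1a1 and -1.21 with Sftpc as a covariate for Scgb3a1. Their adjusted p values (0.0331 and 0.0142 by limma) fell below the threshold because both genes follow its deviations and were chosen with that known, so they carry no weight as tests. Leaving out 1 array gave -1.61 to -0.79 for Scgb3a1, -0.44 to -0.04 for Scgb3a2 and -2.02 to -0.15 for Scgb1a1. With the hybridization controls as a covariate, Scgb3a1 differed by -0.78, Scgb3a2 by -0.10 and Scgb1a1 by -1.73, and the cause was not tested. The change of Scgb3a1 minus that of Scgb1a1 ranged from -1.46 to 1.23 with 1 array left out. It turned positive without clodronate-liposome replicate 1 (1.23) and when PBS-liposome replicate 3 was left out (0.17), and the cause was not tested. The change of Scgb3a1 minus that of Scgb3a2 ranged from -1.34 to -0.47.

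The number of probe sets past the threshold was 138 with all arrays. It was 6 to 73 with 1 array left out, where fewer samples were tested (33, 73 and 23 without clodronate-liposome replicates 1, 2 and 3, and 15, 6 and 16 without PBS-liposome replicates 1, 2 and 3). It was 82 after centring on pan-endothelial markers, 234 with array weights, 244 among probe sets at or above the median signal and 248 with a trended and robust variance. With the hybridization controls as a covariate it was 0 in limma, where the smallest adjusted p was 0.0608. In that fit 4710 probe sets had an unadjusted p under 0.05, against 4864 without a covariate. Further quantile normalization gave 138, the airway secretory markers as a covariate 97, Scgb1a1 as a covariate 198 and Sftpc as a covariate 148.

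The replicate numbers were shared between the groups, but the deviations of same-numbered arrays correlated at only 0.075, 0.070 and 0.036, so the numbers were not used to pair arrays. Every array did correlate best with its own number, which is a hint from the data and not from the design. With the replicate number as a block 0 probe sets passed in limma, with a smallest adjusted p of 0.0507, and Scgb3a1 differed by -1.23 (adjusted p = 0.275). Each member had 1 probe set, so no other probe set could be tried, and Scgb3a2 has no value in the low-signal filter because its mean lay below the median. With 3 arrays per group, only large differences can be detected in genes as variable as these, and for signals near the array median the share of background in the signal is unknown.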
